A study of Mus musculus with 4 samples.

Results

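KN1 is a mouse neural stem cell (NSC) line, and the values below compare its cells with a high and with a low level of the long noncoding RNA Malat1. The cells were chosen by their own Malat1 value: 994 cells at or above the 75th percentile formed the Malat1-high group and 994 cells at or below the 25th percentile formed the Malat1-low group, together 1988 of 3975 KN1 cells and of 15255 cells in the normalized tables of the series. The series profiled 4 NSC lines of the 129/Sv strain, each made from epiblast stem cells (EpiSCs) and each represented by 1 BD Rhapsody library. The medium of every line held EGF and FGF2, each at 10 ng/ml. KN1 received neither Wnt modulator, XN4 and XN1 were kept in 10 µM of the Wnt inhibitor XAV939, and CN4 was kept in 2 µM of the Wnt activator CHIR99021. According to the paper, the XAV939 of XN1 came from another supplier than that of XN4 and formed crystals in the medium. The paper holds that its effective concentration was therefore lower. Before library preparation, dissociated cells were stored in CellCover at 4 °C, for at most 2 weeks. KN1 is a single library, so both groups came from the same cartridge run, no replicate exists and no test was made. Intervals cover counting error only, and they are too narrow because reads, not molecules, were counted.

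Malat1 is one of the most abundant RNAs of mammalian cells. It stays in the nucleus, where it gathers at speckles together with splicing factors, and it is commonly used in single-cell work as a readout of nuclear RNA. Unspliced transcripts of genes with large introns are also nuclear, whereas mature mRNAs for ribosome, mitochondrial and cytoskeletal proteins lie mostly in the cytoplasm.

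Malat1 lies on chromosome 19 of GRCm38, from 5795690 to 5802672 on the minus strand, and its main transcript, Malat1-201, has 6983 bases in GENCODE M21. Its 3′ end has no ordinary poly(A) tail. Instead, a U-rich stretch folds back on a genome-encoded A-rich tract, and the triple helix so formed protects the end. Bases 6594 to 6725 of the transcript are shown because they hold that tract, and because the library kit captures RNA through runs of A. Capitals mark the longest run of A in the transcript, 12 bases at positions 6674 to 6685:
Malat1-201: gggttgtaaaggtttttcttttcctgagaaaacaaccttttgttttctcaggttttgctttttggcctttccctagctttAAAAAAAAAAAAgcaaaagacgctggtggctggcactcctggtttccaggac
The next longest run of A in this transcript had 6 bases.

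The Malat1 value was ln(1 + reads per 10000 reads of the cell). Over the KN1 cells it ran from 0 to 7.58 with a median of 5.61, and 32 cells had no Malat1 read. The last cell within the Malat1-high group had a value of 6.09434 and the next cell outside it 6.09426. The last cell within the Malat1-low group had a value of 4.96106 and the next outside it 4.96139. Both boundaries therefore cut a continuous distribution with one broad peak, as the histogram of Malat1 values shows. Malat1 took 6.56% of the pooled reads of the Malat1-high group and 0.746% of those of the Malat1-low group, and the share in single cells ran from 4.42% to 19.7% and from 0% to 1.42%. These values follow from how the cells were chosen.

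**Figure D1:**
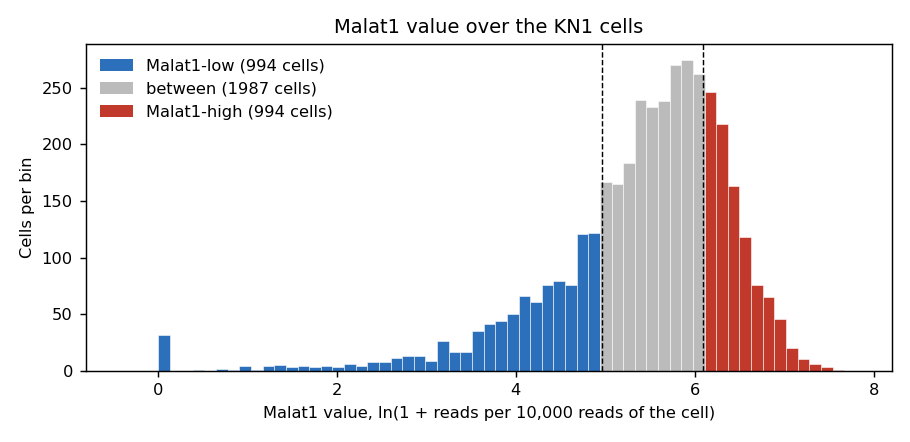
Histogram of the Malat1 value (x axis, natural log scale) over the 3975 KN1 cells, with the number of cells per bin on the y axis. Dashed lines mark the 25th and 75th percentiles; the values form one broad peak (median 5.61) with a tail to low values, and 32 cells sit at 0.

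Both groups were sequenced to similar depth. The mean number of reads for each captured gene and cell, Malat1 included, was 7.74 in the Malat1-high and 7.10 in the Malat1-low group. The median cell had 6122 reads in the Malat1-high group and 5870 in the Malat1-low group, and 5722.5 and 5832 reads once Malat1 was set aside. The rank correlation of the Malat1 value with the other reads of a cell was -0.0128 over 3975 cells. The median number of genes with a read was 812.5 in the Malat1-high and 870.5 in the Malat1-low group. With every cell thinned to 3200 reads other than Malat1, 624 KN1 cells had too few reads, among them 144 of the Malat1-high and 173 of the Malat1-low group. The cells left were divided anew by the Malat1 value, and the medians were 745.5 and 811.5 genes over 838 Malat1-high and 838 Malat1-low cells. KN1 was checked against markers of the NSC state and of other cells. Of 20 NSC markers 18 were captured in 5% of cells. Nes, Slc1a3, Fabp7, Sox2 and Sox9 were among them, Slc1a3 in 86.2% and 71.0% of Malat1-high and Malat1-low cells. The NSC markers Sox1 and Prom1 fell below 5%, Sox1 with 0.201% and 0.503% and Prom1 with 1.71% and 1.41% of these cells. None of the mesenchymal, epiblast, microglia and endothelial markers was captured in 5% of cells, and the summed level of each of these lists was between 0.0421 and 0.360 per 10000 reads. Of the neuron, astrocyte and oligodendrocyte precursor markers, 4 of 15, 3 of 12 and 2 of 12 were captured in 5% of cells. Nefl, Gfap, Aqp4, Pdgfra and Sox10 were not listed in the KN1 table. The neuron markers Tubb3 and Rbfox3 and the astrocyte marker Apoe were listed but below 5%. Tubb3 was captured in 0.704% of Malat1-high and 1.11% of Malat1-low cells, Rbfox3 in 5.23% and 3.22%, and Apoe in 5.23% and 3.32%. Map2, of the neuron list, was captured in 66.3% and 66.9% of the thinned cells. The summed level of the neuron list was 18.3 against 19.3 per 10000 reads, that of the astrocyte list 4.97 against 6.44, and that of the oligodendrocyte precursor list 4.59 against 5.42 in Malat1-high and Malat1-low cells. Among the captured neuron and astrocyte markers the largest difference was that of Gja1, a gap junction gene of astrocytes and radial glia, at -1.38 on the log2 scale.

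For every other gene, reads were pooled over the cells of a group and divided by all reads other than Malat1, and this level is given per 10000 reads. The totals behind it were 6278157 reads in the Malat1-high and 6880347 in the Malat1-low group. Genes captured (at least 1 read) in at least 5% of the 1988 cells were compared, 5557 of 14671 genes. A total of 795 genes, 14.3%, were at least 1.5-fold higher and 1576 genes, 28.4%, at least 1.5-fold lower in the Malat1-high group. The median log2 ratio of all 5557 genes was -0.17, and once ratios were centred on that median the counts were 1135 higher and 1121 lower. The split between directions thus depends on the scaling, and the values below are to be read against -0.17. To follow the values between the extremes, all KN1 cells were cut at the quartiles of the Malat1 value into 4 groups, of which the outer ones are the Malat1-low and Malat1-high groups. Of the genes past 1.5-fold, 471 of the 795 genes increased at each step from the lowest to the highest Malat1 group and 941 of the 1576 decreased at each step, compared with 654 and 1185 among all 5557 genes. The order of the 4 groups is itself set by Malat1, so this is a description.

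The 15 genes with the highest ratio, among 2807 captured in at least 10% of cells, were mostly very long. Both groups together had to reach 10%, and Csmd1, Inpp4b, Rad51b, Cit, Mctp1, Anks1b and Slc17a9 did so only through the Malat1-high group, so the make-up of the 15 is a description. Csmd1, a membrane protein gene of 1643 kb with a role in synapses and complement control, had levels of 0.172, 0.479, 1.04 and 1.41 per 10000 reads from the lowest to the highest Malat1 group. Its ratio was 8.23-fold (6.78 to 10.1), and its capture increased from 6.84% to 14.6% of cells, so the ratio of capture was smaller than that of reads. Rora, a nuclear receptor gene of 734 kb, had 4.99, 10.4, 16.5 and 24.5 per 10000 reads, a ratio of 4.90-fold (4.72 to 5.09), and was captured in 28.8% of Malat1-low and 72.6% of Malat1-high cells. Both genes thus climbed through the middle groups rather than only at the extremes.

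Nkain2, a 1201 kb gene for a partner of the sodium pump, was the most abundant of the 15, with 14.1, 28.9, 43.3 and 57.5 per 10000 reads and a ratio of 4.07-fold (3.98 to 4.16). Chrm3, the M3 muscarinic receptor gene of 485 kb, had 3.99 against 15.7 per 10000 reads, 3.93-fold. Ryr3, a 586 kb gene for an intracellular calcium channel, had 0.728 against 3.01 per 10000 reads, 4.14-fold. Inpp4b, a phosphoinositide phosphatase gene of 785 kb, was 4.98-fold higher, Mctp1, a calcium-binding membrane protein gene of 647 kb, 3.76-fold, and Anks1b, a postsynaptic protein gene of 1100 kb, 3.75-fold. Anks1b was captured in 8.65% of Malat1-low and 11.7% of Malat1-high cells, and in 4.30% and 9.90% of the cells divided anew after thinning.

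Another 4 of the 15 serve chromosomes and cell division rather than synapses. Rad51b, a recombination factor gene of 517 kb, was 4.71-fold higher, and Spidr, a 258 kb gene for a scaffold in recombination repair, 3.90-fold. Cenpp, a 189 kb gene for a centromere protein, was 3.91-fold higher, and Cit, a 164 kb gene for the citron kinase of cytokinesis, 3.77-fold. Without cells with a read of Mki67, Top2a or Hmgb2, the log2 ratio of Spidr went from 1.96 to 1.04 and that of Rad51b from 2.24 to 1.48, that of Cenpp from 1.97 to 1.71, and Cit was captured in too few cells to be compared. The noncoding genes Gm42047 and A230057D06Rik, with spans of 7.93 and 224 kb, were 5.37-fold and 4.11-fold higher. Gm42047 and Slc17a9, a vesicular nucleotide transporter gene of 17.0 kb, were the short genes among the 15. Slc17a9 had a low level, 0.0974 against 0.365 per 10000 reads, with a ratio of 3.75-fold (2.84 to 4.99). All 15 genes increased at each step across the 4 Malat1 groups. Except for Rad51b and Slc17a9, each of the 15 overlaps at least 1 other annotated gene, and reads of overlapping genes may have been assigned to either.

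The 15 genes with the lowest ratio were mostly short, Psma2 with 61.0 kb being the longest. As at the other end, many of them, such as Ndufc2, reached 10% capture only through the group in which they were higher. Ndufc2, a complex I subunit gene of 7.80 kb, had 2.84, 1.60, 1.122 and 0.607 per 10000 reads from the lowest to the highest Malat1 group, 4.69-fold lower, and was captured in 26.1% of Malat1-low against 8.35% of Malat1-high cells. Ndufa12, also of complex I, was 4.67-fold lower, with 2.29 against 0.491 per 10000 reads. Cox6c, a cytochrome c oxidase subunit, was 3.54-fold lower, with 6.55 against 1.85 per 10000 reads. These 3 genes all serve the respiratory chain.

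Of the rest, Sec61g, a subunit of the channel that takes proteins into the endoplasmic reticulum, was 3.87-fold lower. Tuba1c, an alpha-tubulin, was 4.04-fold lower, Dynll1, a dynein light chain, 3.85-fold, and Psma2, a proteasome core subunit, 3.62-fold. H3f3a, which encodes the replication-independent histone H3.3, was 3.66-fold lower, Snrpg, a core protein of spliceosomal snRNPs, 3.66-fold, and Sumo2, a ubiquitin-like modifier, 3.53-fold. Gng5, a G protein gamma subunit, was 3.70-fold lower, and Hint1, a small nucleotide hydrolase, 3.69-fold. Mageh1, Fam181b and Gm11808 were 3.89-fold, 3.65-fold and 4.64-fold lower. All 15 decreased at each step across the Malat1 groups. Gm11808 has a span of 0.504 kb and 1 exon block in the annotation, as copies of processed transcripts do, so its reads could also belong to a near-identical gene.

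Across all genes the ratio followed the length of the gene. Of the 5557 genes, 5538 (99.7%) had 1 match by name in GENCODE M21. Gene span, the distance from first to last base including introns, and exonic length, the summed length of merged exons, were taken from it. The rank correlation across genes of the log2 ratio with span was 0.573 and with exonic length 0.461. Genes are not independent replicates, and no p was computed.

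In 10 equal groups of genes by span, the median log2 ratio was -0.85 in the shortest (0.384 to 6.72 kb), -0.63, -0.46, -0.42, -0.20, -0.15, -0.09 and 0.03 in the next ones, 0.22 in the ninth (117 to 214 kb) and 0.69 in the longest (214 to 4434 kb). The medians thus increased at every step, and the steepest rise was at the long end. In the shortest of these groups 8 of 553 genes (1.45%) were at least 1.5-fold higher and 385 (69.6%) lower, whereas in the longest 325 of 554 (58.7%) were higher and 8 (1.44%) lower, beside 14.3% higher and 28.4% lower of all genes. With genes in 5 equal groups by span, the median of the longest group was higher than that of the shortest by 1.18 on the log2 scale, called the span contrast below. Of 155 genes longer than 500 kb, 120 were at least 1.5-fold higher and 2 lower, with a median log2 ratio of 1.00. Of 77 genes with 1 exon block, 0 were higher and 58 lower, with a median of -0.88.

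In 5 equal groups by exonic length, the median log2 ratio was -0.76, -0.33, -0.15, 0.05 and 0.18 from shortest to longest, a contrast of 0.94. Span and exonic length go together, so each was also followed within the other. Among genes in the shortest exonic group, the median went from -0.89 in the shortest span group (680 genes) to 0.41 in the longest (44 genes). Among genes in the longest span group, it stayed between 0.40 and 0.52 in all exonic groups, which held 44 to 517 genes. Among genes in the shortest span group it went from -0.89 in the shortest exonic group (680 genes) to -0.55, -0.41 and -0.46 in the next (288, 107 and 30 genes).

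**Figure D2:**
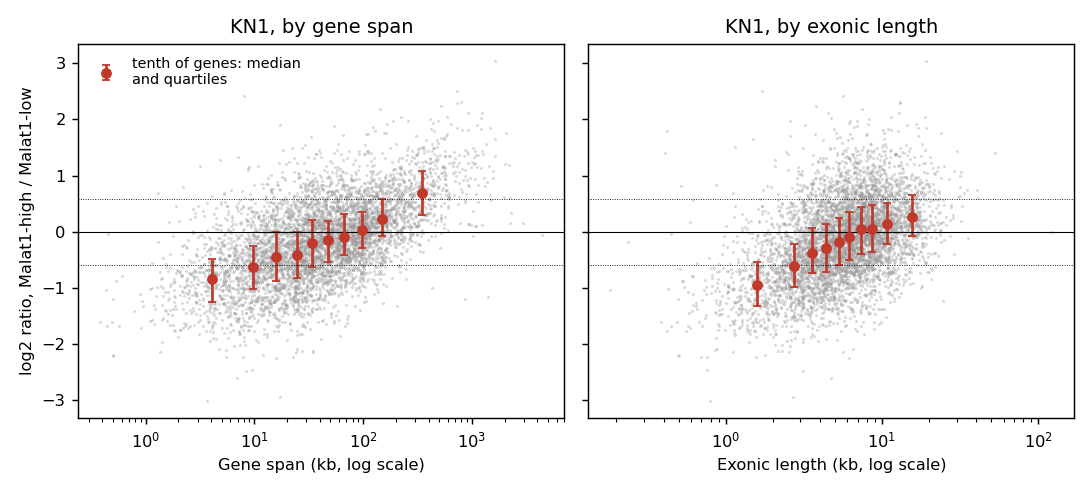
Log2 ratio of pooled levels, Malat1-high over Malat1-low group (y axis), against gene span (left) and exonic length (right), both in kb on log axes, for 5538 KN1 genes (grey points). Red points and bars give the median and quartiles of 10 equal groups of genes, and dotted lines mark 1.5-fold; the median increased from -0.85 to 0.69 with span.

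The same shift was seen in single cells. Genes of 100 kb and over supplied 41.6% of the reads other than Malat1 in the median Malat1-high cell and 27.2% in the median Malat1-low cell. Of the Malat1-high cells 97.4% lay above the median Malat1-low cell, but the ranges overlapped, from 19.9% to 55.9% and from 8.74% to 55.3%. Over all 3975 cells the rank correlation of this share with the Malat1 value was 0.543; both are shares of the same library's reads, and this is given as a description.

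By span class, genes of 500 kb and over, 231 of the KN1 table, supplied 4.60%, 7.20%, 8.59% and 9.78% of pooled reads from the lowest to the highest Malat1 group. Genes of 100 to 500 kb supplied 22.6%, 28.6%, 30.1% and 31.5%. Genes of 20 to 100 kb changed little, from 37.7% to 36.7%. Genes of 5 to 20 kb supplied 21.9%, 17.9%, 16.5% and 15.4%, and genes under 5 kb 13.1%, 8.65%, 7.47% and 6.66%. One gene, Gm42418, made up part of the last class, and without it the shares were 9.45%, 6.61%, 5.75% and 5.13%. In every class but that of 20 to 100 kb, the step from the lowest to the second group was the largest.

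**Figure D3:**
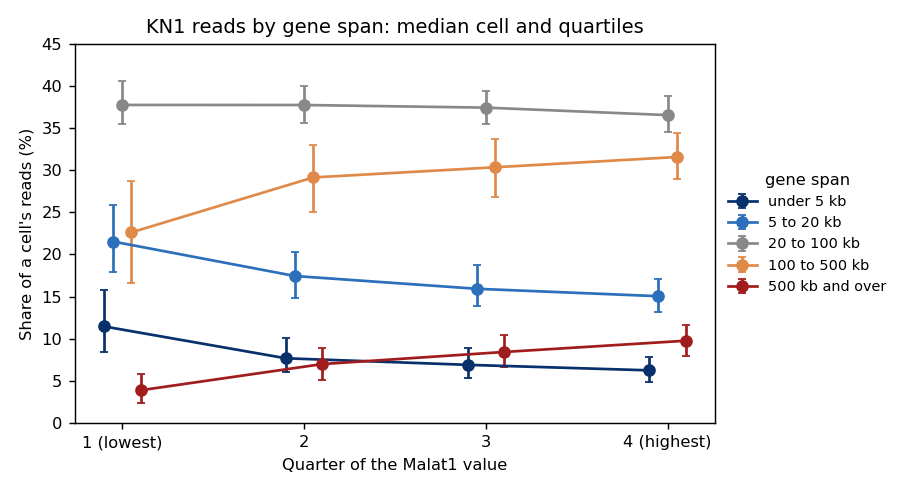
Share of a KN1 cell's reads other than Malat1 (y axis, percent) that came from genes of each span class, in the 4 groups of cells by Malat1 value (x axis, 993 or 994 cells each). Points are the median cell and bars the quartiles; the 2 longest classes gain and the 2 shortest lose share from group 1 to 4, while genes of 20 to 100 kb stay near 37%.

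The genes were also followed in lists grouped by function. All lists were chosen with earlier results of these data known, and the first were made of long genes. The direction of a list is therefore no separate support for the relation with length. The long adhesion and synaptic genes had 20 of 27 compared members at least 1.5-fold higher and 0 lower, beside 14.3% and 28.4% of all genes, with a median log2 ratio of 0.96 against -0.17 for all genes. By shares of cells with a read 15 of 27 were higher and 0 lower. Without cells with a read of Mki67, Top2a or Hmgb2, 15 of 26 were higher and 1 lower. Of the members below the capture limit, Csmd3 was captured in 4.73% of Malat1-high and 4.93% of Malat1-low cells. Kcnip4 was captured in 3.52% of both, and Nrg3 in 5.13% and 2.41%. Nlgn1, a postsynaptic adhesion protein gene of 906 kb, had 3.69, 5.53, 7.94 and 9.93 per 10000 reads across the Malat1 groups, 2.69-fold higher (2.57 to 2.82). Lrp1b, a giant endocytic receptor, was at 1.75 on the log2 scale. At the other end, Cadm1, an adhesion gene of 327 kb, was at -0.22. Very long genes did not all shift alike: Dcc, a netrin receptor gene of 1097 kb, was at 0.11 and Ptprd, a receptor phosphatase gene of 2271 kb, at 0.34.

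Of 37 long chromatin and transcription regulators, 10 were at least 1.5-fold higher and 0 lower, beside 14.3% and 28.4% of all genes, with a median of 0.36. The count depended on the processing: 18 were higher for the top and bottom 10% of cells, 16 once centred on the median of all genes, 4 without cells with a read of Mki67, Top2a or Hmgb2, and 1 by shares of cells with a read. Zeb1, a repressor of epithelial genes, had 19.3 against 45.9 per 10000 reads and a log2 ratio of 1.25, and Auts2, a gene of 1106 kb linked to a Polycomb complex, had 1.15. The histone acetyltransferase gene Ep300 was at -0.57, whereas its relative Crebbp was at 0.62. The nuclear factor I genes Nfia and Nfib, of 346 and 416 kb, were at 0.03 and -0.07.

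The lists of mostly short genes, also chosen with the results known, were lower almost throughout. In the shortest of the 5 equal groups by span, up to 12.6 kb, 61.3% of genes were lower. Of 57 nuclear genes of the respiratory chain, 0 were at least 1.5-fold higher and 54 lower, beside 14.3% and 28.4% of all genes, with a median of -1.31 and a range from -2.23 to -0.46. Of 39 cytoskeleton and household genes 35 were lower, beside the same 28.4%, with a median of -1.08. Actb, cytoplasmic beta-actin, had 31.4, 19.02, 15.5 and 11.1 per 10000 reads across the Malat1 groups, 2.835-fold lower, and Gapdh, of glycolysis, had 5.91 against 2.16. Tmsb4x, an actin-binding peptide, was at -1.72. The glycolytic kinase Pkm was at -0.18, next to the median of all genes.

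Of 29 proteasome subunits 23 were lower, with a median of -1.12, and of 26 translation factors 19 were lower and 0 higher, with a median of -0.75, beside 28.4% lower of all genes. Once centred on the median of all genes, 12 translation factors were lower and 1 higher. Eif3e was at -1.73 and Eef1a1, the most abundant of the list, at -0.81, whereas Eif3a, a scaffold of the same initiation complex as Eif3e, was at 0.45. Of 23 secretory pathway genes 19 were lower, with a median of -0.98. Proteasome subunits did not follow span: the 11 compared subunits of 20 kb and over had a median of -1.14 and the 18 shorter ones -1.07. Psmb7, with a span of 56.1 kb, was at -1.48. This division at 20 kb was chosen after the values were seen, as were those that follow.

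**Figure D4:**
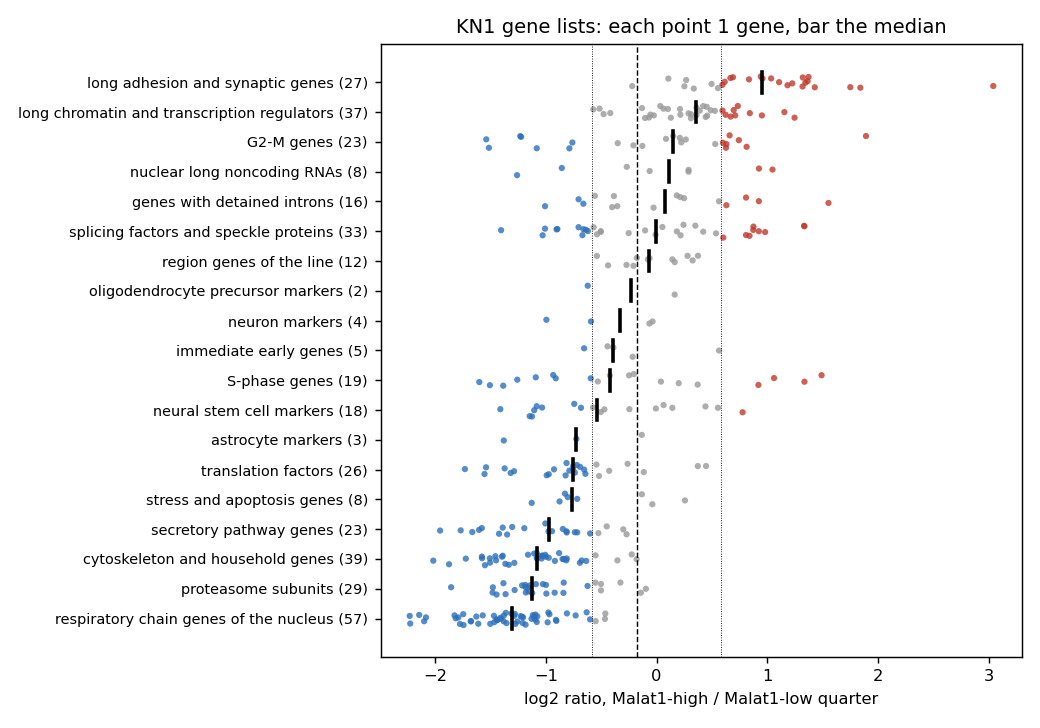
Log2 ratio, Malat1-high over Malat1-low group of KN1 (x axis), of every compared gene in 19 lists (1 point per gene, number of genes in brackets). Black bars are list medians, the dashed line is the median of all 5557 genes, -0.17, dotted lines mark 1.5-fold, and red and blue points lie past it; the lists run from 0.96 for long adhesion and synaptic genes to -1.31 for the respiratory chain.

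Many splicing factors reside with Malat1 at speckles. Of 33 splicing factors and speckle proteins, 9 were at least 1.5-fold higher and 10 lower, beside 14.3% and 28.4% of all compared genes, and the median was -0.01, between -0.20 and 0.16 over the alternatives. Centred on the median of all genes, 11 were higher and 5 lower, and by shares of cells with a read 1 was higher and 10 lower. Pnn, a speckle protein gene of only 7.11 kb, had 3.61, 5.92, 7.97 and 9.10 per 10000 reads across the Malat1 groups and a log2 ratio of 1.34. Prpf4b, a splicing kinase, was at 1.33, Srsf11 at 0.98, Srrm2 and Son, the scaffold proteins of speckles, at 0.88 and 0.84, and Rbm25 at 0.87. Of the SR protein genes, Srsf6 was at -1.40, Srsf7 at -1.01, and Srsf2 and Srsf3 both at -0.90, whereas Srsf1 at -0.50 and Srsf4 at -0.25 did not pass 1.5-fold. The 15 genes of 20 kb and over in the list had a median of 0.42 and the 18 shorter ones -0.63, with Pnn, Snrnp70 (0.92) and Srsf10 (0.54) as exceptions among the shorter.

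Among 16 genes with detained introns, whose incompletely spliced transcripts are known to wait in the nucleus, 4 were higher and 3 lower, beside 14.3% and 28.4% of all genes, with a median of 0.08 that became -0.15 for shares of cells with a read. Once centred on the median of all genes 5 were higher and 1 lower, and by shares of cells 1 and 2. Pnisr, a nuclear protein that binds Pnn, had 12.3, 23.0, 27.5 and 36.1 per 10000 reads and a log2 ratio of 1.55. By comparison, Clk1 and Clk4, the kinases of SR proteins and textbook cases of detained introns, were at -0.56 and -0.38, and Ogt, the O-GlcNAc transferase, at -0.03. The list thus held values on both sides of the median of all genes.

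Of 30 nuclear long noncoding RNAs on the list, Malat1 among them, 8 others were compared, too few to set against the 14.3% higher and 28.4% lower of all genes. Of these, 2 were higher and 2, Snhg12 and Gm42418, lower, with a median of 0.11 that became -0.04 when each cell had equal weight. Gm42418 and Gm26917 are annotated as long noncoding RNA genes, but whether their reads came from nuclear RNA was not tested. With Gm42418 left out, 7 were compared, 2 higher and 1 lower, with a median of 0.26. Pvt1, of 340 kb, had 2.02 against 4.17 per 10000 reads and a log2 ratio of 1.05, and Airn, the antisense transcript of the Igf2r imprinted locus, 0.92. Xist, the RNA that coats the inactive X, had 30.0 against 24.9 per 10000 reads and a log2 ratio of -0.27. Tug1 was at 0.29. Neat1, the neighbour of Malat1 and the scaffold of paraspeckles, was captured in 1.11% of Malat1-high and 0.905% of Malat1-low cells, too few for a comparison. Kcnq1ot1, an imprinted noncoding RNA also below the limit for comparison, was captured in 7.14% (5.62 to 8.92) and 1.51% (0.847 to 2.48). Below the same limit, Ftx and Jpx went the other way, with capture in 3.12% and 2.72% of Malat1-high and 4.83% and 4.63% of Malat1-low cells.

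Gm42418 stood apart. It is annotated as a long noncoding RNA gene of 1.83 kb (chromosome 17, 39846958 to 39848788, plus strand) and overlaps the annotated genes AY036118 and CT010467.1. Which RNA its reads came from was not tested. Gm42418 had the most reads of all genes other than Malat1 in the KN1 table, which lists no mitochondrial or ribosomal protein gene. In the Malat1-low group it had more reads than Malat1. It had 366, 203, 172 and 153 per 10000 reads from the lowest to the highest Malat1 group, 2.39-fold lower, with reads in 99.8% of cells of both groups. Its share of the other reads ran from 0% to 36.5% in single Malat1-low cells and from 0% to 9.08% in Malat1-high cells, and 74.7% of the Malat1-low cells lay above the median of the Malat1-high cells. With this gene left out of the total, a choice made after seeing the data, 747 genes were higher and 1653 lower. Whether it plays a part in the other differences was not tested.

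Cell cycle genes were compared in a G2-M and an S-phase list. Of 23 compared G2-M genes, which act in mitosis, 7 were at least 1.5-fold higher and 7 lower, beside 14.3% and 28.4% of all compared genes. The count of higher genes was 3 for the top and bottom 10% of cells and with Malat1 kept in the total, and 1 by shares of cells with a read, while 9, 7 and 7 were lower. Kif20b, a mitotic kinesin gene of 53.4 kb, had 1.72, 2.70, 4.61 and 6.38 per 10000 reads across the Malat1 groups, 3.71-fold higher (3.48 to 3.96), with capture in 11.4% of Malat1-low and 32.0% of Malat1-high cells. Top2a, the topoisomerase that untangles chromosomes, had 5.20 against 8.22, a log2 ratio of 0.66. At the other end Ccnb1, the mitotic cyclin B1, had 1.38 against 0.475 per 10000 reads, a log2 ratio of -1.54, and Ube2c, a ubiquitin-conjugating enzyme of mitotic exit, 3.14 against 1.10, a ratio of -1.51. Mki67, the proliferation marker Ki-67, was at -0.13.

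The 15 G2-M genes of 20 kb and over had a median of 0.53, with 7 higher and 0 lower, and the 8 shorter ones a median of -1.15, with 0 higher and 7 lower. The median of all 23, 0.15, became -0.30 for the top and bottom 10% of cells and -0.07 for shares of cells with a read, while that of the 15 longer genes stayed above 0 in both. The share of cells with a read of Mki67, Top2a or Hmgb2 was 57.1% (54.0 to 60.2) in the Malat1-low and 52.3% (49.2 to 55.5) in the Malat1-high group. By gene, Top2a was captured in 28.8% of Malat1-low and 42.6% of Malat1-high cells, Hmgb2 in 29.7% and 17.6%, and Mki67 in 34.1% and 27.6%. A share of cycling cells read from 1 of these genes would therefore differ in direction with the gene used. Without the cells that had a read of any of the 3 genes, the span contrast was 1.00, and the median of the 4 longer G2-M genes that could still be compared was -0.43.

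Of 19 compared S-phase genes 4 were higher and 8 lower, again beside 14.3% and 28.4% of all genes, with a median of -0.42. The 10 of 20 kb and over had 4 higher and 3 lower with a median of -0.00, and the 9 shorter ones 0 higher and 5 lower with a median of -0.59. Without cells with a read of Mki67, Top2a or Hmgb2, 9 S-phase genes could be compared, 2 higher and 2 lower. Chaf1b, a histone chaperone subunit of replicating chromatin, was at 1.49 and Atad2 at 1.34, whereas Pcna, the sliding clamp of the DNA polymerases, was at -1.60 and Rrm2, of nucleotide synthesis, at -1.38. None of the 32 replication-dependent histone genes, whose mRNAs lack a poly(A) tail, was captured in 5% of cells, and 11 were listed in the table.

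NSC markers had a median of -0.54 over 18 compared genes, with 1 higher and 8 lower, beside 14.3% and 28.4% of all genes, and 3 higher and 6 lower once centred on the median of all genes. The summed level of the list was in the other direction, 93.5 per 10000 reads in Malat1-high and 83.8 in Malat1-low cells, since a few abundant members such as Slc1a3 weigh most in the sum. The 7 members of 20 kb and over had a median of 0.06 and the 11 shorter ones -1.03. Fabp7, a fatty acid binding protein of radial glia with a span of 3.57 kb, had 6.65, 3.61, 3.02 and 2.50 per 10000 reads, 2.66-fold lower. The short transcription factor genes Olig2, Sox3 and Sox2 were at -1.10, -1.12 and -0.74. Slc1a3, the glutamate transporter of radial glia with a span of 76.6 kb, had 20.6 against 35.4 per 10000 reads, 1.71-fold higher, and the intermediate filament gene Nes was at 0.44 although it spans 9.37 kb. The 12 compared region genes of the line, mostly Hox and Meis genes, ranged from -0.54 (Hoxb5) to 0.37 (Hoxb4) with a median of -0.07 (0.14 for the top and bottom 10% of cells). Of these 12 genes 0 passed 1.5-fold, beside 14.3% higher and 28.4% lower of all genes. The count depended on the processing: 1 was higher and 0 lower for the top and bottom 10% of cells. By shares of cells with a read 1 was higher and 1 lower.

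Few stress and apoptosis genes and few immediate early genes were captured in 5% of cells, 8 of 24 and 5 of 21. Of 8 compared stress and apoptosis genes 0 were higher and 5 lower, beside 14.3% and 28.4% of all genes, with Xbp1 at -1.13, Atf4 at -0.88 and Bax at -0.80. Without cells with a read of Mki67, Top2a or Hmgb2, 1 of 7 was higher and 2 lower, with a median of -0.25 in place of -0.76. The p53 targets Cdkn1a and Mdm2 were at -0.04 and 0.26. Of 5 compared immediate early genes 1, Jun, was lower, at -0.65, and 0 were higher, a share of lower genes near the 28.4% of all genes.

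The other lines showed the same order by length when split in the same way, with differences in size, in depth and in genes captured. In XN4, XN1 and CN4 the contrast between the longest and the shortest span group was 1.15, 0.56 and 0.52 on the log2 scale, compared with 1.18 in KN1, and the median increased from each span group to the next in all 4 lines. The contrasts rest on different sets of genes, 9789, 8821 and 9482, compared with 5538 in KN1. The longest span group began at 78.4, 83.7 and 83.2 kb, compared with 117 kb in KN1, so the sizes are not like for like. The groups of those lines were less alike in depth: the median cell had 4304.5 reads in the Malat1-high and 14419 in the Malat1-low group of XN4, 3974 and 4706 in XN1, and 5047 and 7243 in CN4. KN1 also had more Malat1 than the rest, 3.20% of reads, compared with 1.42%, 0.530% and 0.328%. The median KN1 cell had reads of 833 genes, compared with 2479, 2257 and 2824 in XN4, XN1 and CN4. Reads for each captured gene and cell averaged 7.39 in KN1, 3.90 in XN4 and 2.14 in XN1. CN4 lay between XN1 and XN4. In Malat1-low KN1 cells, genes of 500 kb and over supplied 4.60% of pooled reads. In Malat1-high cells of XN4, XN1 and CN4 they supplied 2.46%, 1.53% and 1.78%. Whether these differences affect the contrasts was not tested. Each line is 1 library, so lines and libraries cannot be told apart.

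Of the 15 genes highest in KN1, 12, 11 and 13 could be compared in XN4, XN1 and CN4, and 11, 8 and 13 of these had ratios above 1. In XN4 10 of the 12 were at least 1.5-fold higher and 0 lower, beside 27.0% and 20.98% of all compared genes. In CN4 11 of the 13 were higher and 0 lower, beside 12.5% and 4.20%. In XN1 7 of the 11 were at least 1.5-fold higher and 2 lower, beside 10.9% and 11.1% of all compared genes. The 2 lower genes were Cenpp, at -1.18 on the log2 scale, and Cit, at -1.12. The exception in XN4 was Cit, at -0.43. Of the 15 lowest, 13, 15 and 15 could be compared, and 13, 14 and 14 had ratios below 1. Fewer passed the 1.5-fold limit: 12, 8 and 4 were lower in XN4, XN1 and CN4, beside 20.98%, 11.1% and 4.20% of all compared genes. Over all compared genes 52.87%, 52.98% and 58.2% were above 1. The G2-M genes differed in pattern: in XN4 and XN1 all 15 compared genes of 20 kb and over and all 10 shorter ones were at least 1.5-fold lower in the Malat1-high group, whereas in CN4 7 of 25 were higher and 0 lower. Over all compared genes 20.98% and 11.1% were lower in XN4 and XN1, and 12.5% were higher and 4.20% lower in CN4. The difference between lines was not tested.

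**Figure D5:**
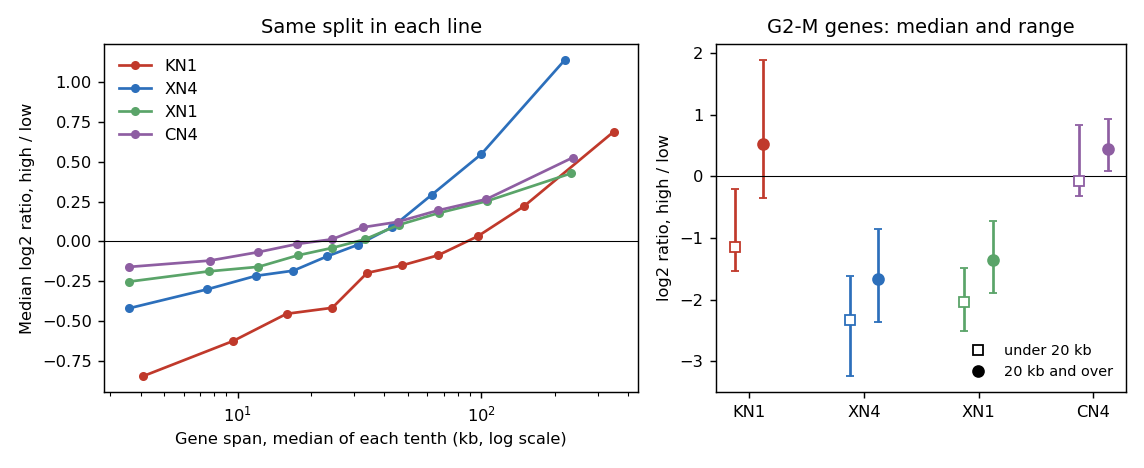
Left, median log2 ratio, Malat1-high over Malat1-low group (y axis), in 10 equal groups of genes by span (x axis, kb, log scale) in KN1, XN4, XN1 and CN4; it increased at each step in all 4. Right, median and range of the log2 ratio of G2-M genes under 20 kb (open squares) and of 20 kb and over (filled circles) in each line; in KN1 the medians were -1.15 and 0.53, in XN4 and XN1 both were below -1.

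For those 3 lines, tables of all reads also hold the mitochondrial and ribosomal protein genes, which none of the normalized tables list. For the same cells, the median share of reads from 13 mitochondrial genes was 41.9% in the Malat1-high and 16.2% in the Malat1-low group of XN4, 19.6% and 13.1% in XN1, and 19.8% and 12.6% in CN4. The share from 83 ribosomal protein genes was 3.27% and 7.30% in XN4, 3.23% and 6.58% in XN1, and 4.27% and 8.02% in CN4. Mitochondrial transcripts were thus higher and ribosomal protein transcripts lower in Malat1-high cells of each of the 3 lines. For KN1 these shares were not analysed here, and their part in its differences was not tested.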

How the data were processed

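The 4 NSC lines were profiled with 1 BD Rhapsody library each; KN1 was the line analysed. The deposited KN1 table holds natural logs, ln(1 + 10000 × reads / total), computed by the authors (Seurat 4.3.0, per the submitters' processing notes); it lists no ribosomal protein or mitochondrial gene, and the same kind of table exists for the other lines. For XN4, XN1 and CN4 the authors also deposited read counts per gene and cell from version 1.12.1 of the BD Rhapsody pipeline with GENCODE M19 on GRCm38, in which introns were counted. The paper names the BD Rhapsody pipeline and GRCm38 for all 4 lines. The pipeline version, annotation release and intron setting of KN1 are not given in the sources used here. Each value was turned back into reads through the smallest step of its cell, and 100% were whole within 0.01.

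Cells at or above the 75th percentile of the Malat1 value were set against those at or below the 25th. Ratios are of pooled reads per 10000 reads other than Malat1, with exact conditional 95% intervals for ratios and exact binomial ones for shares. No count model was used, as there is 1 library. Genes needed capture in 5% of cells, and 1.5-fold was the limit for a call. Lengths came from GENCODE M21 (GRCm38); 14572 of 14672 genes, Malat1 included, matched by name. Named genes were the 15 highest and 15 lowest with capture of at least 10%, and members of 24 lists (largest, smallest and those of known role). Members and lists were chosen with earlier results of these data known. Doublets were not called; the 5% of cells with the most reads were left out as an alternative. KN1 shared 19, 21 and 20 cell barcodes with XN4, XN1 and CN4. Thinning left out 624 of all KN1 cells. The scripts were tested on simulated data (Python 3.11.15, numpy 2.4.6, scipy 1.17.1, pandas 2.3.3).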

Additional observations from a re-analysis of the deposited data

Results flagged for a closer look

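For 3 of the lists with at least 3 compared genes in every line, and for 11 of the genes named in the report, the sign of the list's median or of the gene's log2 ratio in KN1 was opposite to that in each of XN4, XN1 and CN4. Oligodendrocyte precursor markers, with 2 genes compared in KN1, also had opposite signs, with medians of -0.23 in KN1 and 0.13, 0.08 and 0.30 in the others. The difference between lines was not tested, since each is 1 library. Gm42418 had a log2 ratio of -1.26 in KN1 and 0.29, 0.08 and 0.60 in XN4, XN1 and CN4. The S-phase genes Chaf1b (1.49) and Atad2 (1.34) were above 0 in KN1, against -1.57, -2.17 and -0.79 for Chaf1b and -1.01, -0.70 and -0.05 for Atad2 in XN4, XN1 and CN4. Nes was at 0.44 in KN1 and at -0.40, -0.17 and -0.41 in the others. Of the genes with detained introns, Clk1 was at -0.56 in KN1 and at 0.48, 0.40 and 0.51 in the others, Clk4 at -0.38 against 0.86, 0.57 and 0.68, and Ogt at -0.027 against 1.42, 0.86 and 1.02. Ep300 was at -0.57 in KN1 against 0.42, 0.48 and 0.53, and Sox9 at -0.50 against 0.0033, 0.45 and 0.25. Nfib, at -0.068 in KN1 against 0.92, 0.19 and 0.23, and Cdkn1a, at -0.038 against 1.10, 0.74 and 1.21, were above the median of all genes in KN1, as was Ogt. NSC markers had a median of -0.54 in KN1 (18 genes) and 0.30 (11 genes), 0.02 (18 genes) and 0.24 (20 genes) in the others; the value of XN1 was below the median of all its genes, and the summed level of the list in KN1 was higher in Malat1-high cells (0.16 on the log2 scale). Astrocyte markers had a median of -0.72 over 3 genes in KN1 and 0.11, 1.16 and 0.47 over 4, 9 and 7 genes, not all of them the same genes. Immediate early genes had a median of -0.39 over 5 genes in KN1 and 0.21, 0.48 and 0.60 over 19, 14 and 16 genes. The median of all compared genes was -0.17 in KN1 and 0.06, 0.04 and 0.08 in the others.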

How the results depend on the processing

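No paired analysis was possible because KN1 is 1 library and the lines share no paired samples. The main values were 795 genes higher, 1576 lower, a span contrast of 1.18 and an exonic length contrast of 0.94; no alternative reversed a contrast. The counts were within 1.5 times the main ones under 9 of 14 alternatives for higher genes and 10 of 14 for lower genes. They moved to 318 and 817 for cells above against at or below the median, 1641 and 3395 with capture of at least 1%, 267 and 218 with at least 20%, and 2960 and 4673 with no filter, where counting error alone is large. The ratio of shares of cells with a read gave 432 higher genes, 1590 lower, and contrasts of 1.01 and 0.829. The span and exonic contrasts were 1.63 and 1.303 for the top and bottom 10% of cells, 0.70 and 0.576 for cells above against at or below the median, 1.00 and 0.803 without cells with Mki67, Top2a or Hmgb2, 1.04 and 0.786 with capture of at least 1%, 1.57 and 1.33 with at least 20%, 0.988 and 0.650 with no filter, and 0.949 and 0.847 for genes that overlap no other gene. In XN4, XN1 and CN4, over other sets of genes, the exonic contrasts were 1.02, 0.58 and 0.495, beside span contrasts of 1.15, 0.557 and 0.523. The causes of these shifts were not tested. The median of G2-M genes, 0.15, became -0.30 for the top and bottom 10% and -0.07 for shares of cells; that of the 15 longer ones kept its sign in both (0.28 and 0.24) and became -0.43 over the 4 left without cells with Mki67, Top2a or Hmgb2. With a mean of 7.39 reads for each captured gene and cell, counting intervals are too narrow.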
